A study of Mus musculus with 9 samples.

Results

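The genes described here encode enzymes that start or extend mucin-type O-glycans: the polypeptide GalNAc-transferase genes Galnt1, Galnt2, Galnt3, Galnt4, Galnt6, Galnt7, Galnt10, Galnt11 and Galnt12, and the core 1 galactosyltransferase gene C1galt1. They were chosen by gene symbol from a microarray table of mouse T helper cell cultures, and all 10 were found among 22180 named genes. Where a gene had more than 1 probe set, a group of short DNA probes on the array, the probe set with the highest mean intensity stood for it. Of the measured values only this mean intensity was used in the choice of probe set, and it mattered for Galnt1 alone. The list was drawn up with earlier results of these arrays known, so a count over its members is a description.

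Mucin-type O-glycosylation begins in the Golgi, where a GalNAc-transferase joins N-acetylgalactosamine to a serine or threonine of a protein. The many enzymes of this family differ in the peptides they accept and in the tissues that make them, and some, such as the products of Galnt7 and Galnt10, prefer peptides that already carry such a sugar. C1galt1 then adds galactose to give the core 1 structure, and further enzymes branch the chain, add sialic acid or sulphate it. On T cells these glycans cover surface proteins such as CD43, CD45 and PSGL-1, and their shape governs binding of selectins and galectins.

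Naive CD4 T cells sorted from mouse spleen (CD25-, CD44 low and CD62L high) were grown for 60 h under Th17 conditions, which turn them into helper cells that secrete IL-17. Plates were coated with antibodies to CD3 and CD28 (10 µg/ml each), and the medium held TGF-β1 (1 ng/ml), IL-6 (30 µg/ml, as the labels write it) and 2 µg/ml each of antibodies to IL-4 and IFN-γ. The groups were SRG3 cKO cells (a conditional knockout of SRG3, the Swi/Snf remodelling subunit encoded by Smarcc1), RORγt KO cells (lacking the transcription factor RORγt) and WT cells, with 3 arrays each and 9 in all. The promoter that drove the deletion, the age and sex of the mice and any allele the groups share are not given in the sources used here. Arrays of a genotype are labelled as biological replicates without saying whether they were separate mice or cultures. The p-values therefore set a difference only against the spread between arrays, which may not be the spread between mice.

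Values are log2 intensities, and a difference of 1 is a doubling of intensity. The words rise, fall and change are used of a gene only where the adjusted p of limma (a linear model with pooled variance, Benjamini-Hochberg adjustment over the 22180 genes) was under 0.05. Array medians lay between 7.12 and 7.14. One array per group stood apart from its group on the first principal component, which held 28.8% of the variance: SRG3 cKO 1 was at 3.98 against -3.27 and -2.06, RORγt KO 3 at 3.22 against 9.82 and 11.97, and WT 1 at -1.38 against -10.5 and -11.8. Smarcc1, the targeted gene, lay at 8.47 to 8.79 in SRG3 cKO arrays and at 10.13 to 10.40 in WT arrays (log2 change -1.65, SE 0.09, adjusted p = 0.000207). The targeted gene of the RORγt KO cells was not analysed here. T cell genes were bright in all groups (mean over 6 genes 10.82 to 10.99 in SRG3 cKO, 10.77 to 10.87 in RORγt KO and 10.66 to 10.83 in WT arrays). None of 25 measured markers of B cells (5), myeloid cells (7), CD8 T and NK cells (6), epithelial cells (6) and erythroid cells (1) changed in any comparison.

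Galnt3 was the member that changed. In humans its enzyme protects the hormone FGF23 from cleavage by glycosylating it, and loss of the enzyme causes familial tumoral calcinosis. Its log2 intensity was 8.39, 8.28 and 8.35 in SRG3 cKO arrays, 8.07, 7.96 and 7.84 in RORγt KO arrays, and 8.75, 8.69 and 8.75 in WT arrays. Every WT array was above every SRG3 cKO array, and every SRG3 cKO array was above every RORγt KO array.

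The promoter of Galnt3 is shown because Galnt3 alone of the members fell, and that of Galnt6 because the products of the pair are close relatives within the family and Galnt6 did not change. Both sequences are from RefSeq (GRCm38.p6), written 5′ to 3′ on the strand of the gene, with the 250 bases before the annotated start in lower case and the 50 bases after it in capitals. The Galnt3 window is chr2:66124744-66125043 on the minus strand, and the Galnt6 window, at the outer of its 2 annotated starts, is chr15:100729327-100729626, also on the minus strand.
Galnt3: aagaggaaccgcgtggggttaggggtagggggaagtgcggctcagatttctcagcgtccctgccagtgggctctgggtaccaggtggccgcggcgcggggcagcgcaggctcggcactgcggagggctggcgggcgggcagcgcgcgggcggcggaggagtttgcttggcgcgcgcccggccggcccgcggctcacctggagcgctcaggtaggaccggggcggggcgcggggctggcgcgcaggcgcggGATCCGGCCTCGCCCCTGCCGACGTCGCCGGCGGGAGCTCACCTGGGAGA
Galnt6: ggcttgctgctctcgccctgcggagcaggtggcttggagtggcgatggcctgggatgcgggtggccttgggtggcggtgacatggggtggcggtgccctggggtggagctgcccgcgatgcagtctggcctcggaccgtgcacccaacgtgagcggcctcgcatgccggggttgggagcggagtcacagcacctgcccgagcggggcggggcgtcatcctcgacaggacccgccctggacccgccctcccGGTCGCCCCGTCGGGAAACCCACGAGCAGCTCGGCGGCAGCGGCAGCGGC

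Both windows were rich in G and C, with 76.7% G or C and 41 CpG dinucleotides for Galnt3 and 73.7% and 31 for Galnt6, against medians of 52.7% and 7 over all 32851 promoter windows. Windows of 6 members were searched, 8 in all counting second starts of Galnt6 and Galnt11. Galnt1, Galnt2, Galnt4 and Galnt12 were not searched. Any window on the chromosome of Galnt1 was left out of the search by choice. The motifs searched, on both strands, were AGGTCA, bound by ROR proteins, TGANTCA, the AP-1 site, and TTCNNNGAA, the STAT site. None was in any of the 8 windows, while 16.3%, 7.81% and 8.3% of all windows held them in that order. No match says only that these letters are not in these 300 bases.

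Galnt3 averaged 8.34 ± 0.06 in SRG3 cKO cells and 8.73 ± 0.04 in WT cells (SD, n = 3 each), a fall of 1.31-fold (log2 change -0.39, SE 0.06, 95% confidence interval -0.53 to -0.26, limma adjusted p = 0.0273). In this comparison 0.523% of all genes changed (116, or 195 with the replicate number as a block) and 0.243% fell, and 1 of the 10 members fell. Among the 54 genes that fell, Galnt3 ranked 35 by size, and the median size of all changes called was 0.42. The call changed with the arrays in the fit. Without the RORγt KO arrays the log2 change was again -0.39, with an SE of 0.04, and the adjusted p was 0.0513, or 0.0562 with the replicate number as a block. It did not pass when SRG3 cKO 1, 2 or 3, RORγt KO 2, or WT 1, 2 or 3 was left out, and it passed without RORγt KO 1 or RORγt KO 3. The direction held in all 21 alternatives (log2 change -0.42 to -0.36), of which 11 passed the threshold (adjusted p 0.0124 to 0.151).

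In RORγt KO cells the fall was larger. Galnt3 averaged 7.96 ± 0.12 in RORγt KO cells and 8.73 ± 0.04 in WT cells (SD, n = 3 each), which is 1.71-fold lower (log2 change -0.77, SE 0.06, interval -0.91 to -0.64, limma adjusted p = 0.000391). Of all genes 1.04% changed and 0.343% fell, and of the members 1 fell. Galnt3 ranked 11 by size among the 76 genes that fell, where the median size of all calls was 0.40. This result passed in all 21 alternatives, with log2 changes of -0.83 to -0.70 and adjusted p of 0.000137 to 0.0355. Without the 3 arrays that stood apart it was -0.70.

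Set directly against each other, SRG3 cKO cells had 1.30-fold more Galnt3 signal than RORγt KO cells (log2 difference 0.38, SE 0.06, interval 0.25 to 0.51, limma adjusted p = 0.0158, n = 3 each). In this comparison 1.28% of all genes changed and 0.595% were higher, and of the members 1 was higher. Galnt3 ranked 63 by size among 132 genes higher in SRG3 cKO cells. The difference kept its sign in all 21 alternatives (0.29 to 0.44) and passed in 15 (adjusted p 0.00766 to 0.137). The call was lost in the fit of the 6 arrays compared (adjusted p = 0.0751, or 0.0767 with the replicate number as a block). It was also lost without SRG3 cKO 1 (0.0702), SRG3 cKO 3 (0.0697) or RORγt KO 2 (0.0679). Without the 3 arrays that stood apart the difference was 0.29 (adjusted p = 0.137). The 2 comparisons with WT share the WT arrays and are given side by side, not as independent evidence.

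The mean intensity of 6 genes that mark Th17 cells had the same order of groups as Galnt3. This mean (Il17a, Il17f, Il23r, Ccr6, Il1r1 and Ccl20) was 9.11 to 9.26 in SRG3 cKO arrays, 7.97 to 8.17 in RORγt KO arrays and 9.68 to 9.99 in WT arrays. Of these, 3 fell in SRG3 cKO cells (Il17a, Il17f and Il23r), against 0.243% of all genes. In RORγt KO cells 5 fell (all but Ccl20), against 0.343%. Those 5 were higher in SRG3 cKO than in RORγt KO cells, against 0.595%. Taken singly, Il17a, Il17f and Il23r had the order of groups seen for Galnt3. Ccr6 (0.02) and Il1r1 (-0.03) did not pass in SRG3 cKO against WT cells, and Ccl20 did not pass in any comparison. The part of these genes in the Galnt3 result was not tested. The RNA came from whole cultures, so fewer Galnt3-expressing cells and less Galnt3 RNA per cell cannot be told apart. None of the 4 genes nearest to Galnt3 on its chromosome in the RefSeq order (Scn2a, Csrnp3, Ttc21b and Scn1a) changed. Their log2 changes against WT lay between -0.09 (Ttc21b in RORγt KO) and 0.04 (Ttc21b in SRG3 cKO). Only Ttc21b (mean 7.99) was brighter than the median of all values, 7.13. Scn2a (5.87), Csrnp3 (6.97) and Scn1a (4.78) were dimmer, so a fall in them might not show.

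**Figure D1:**
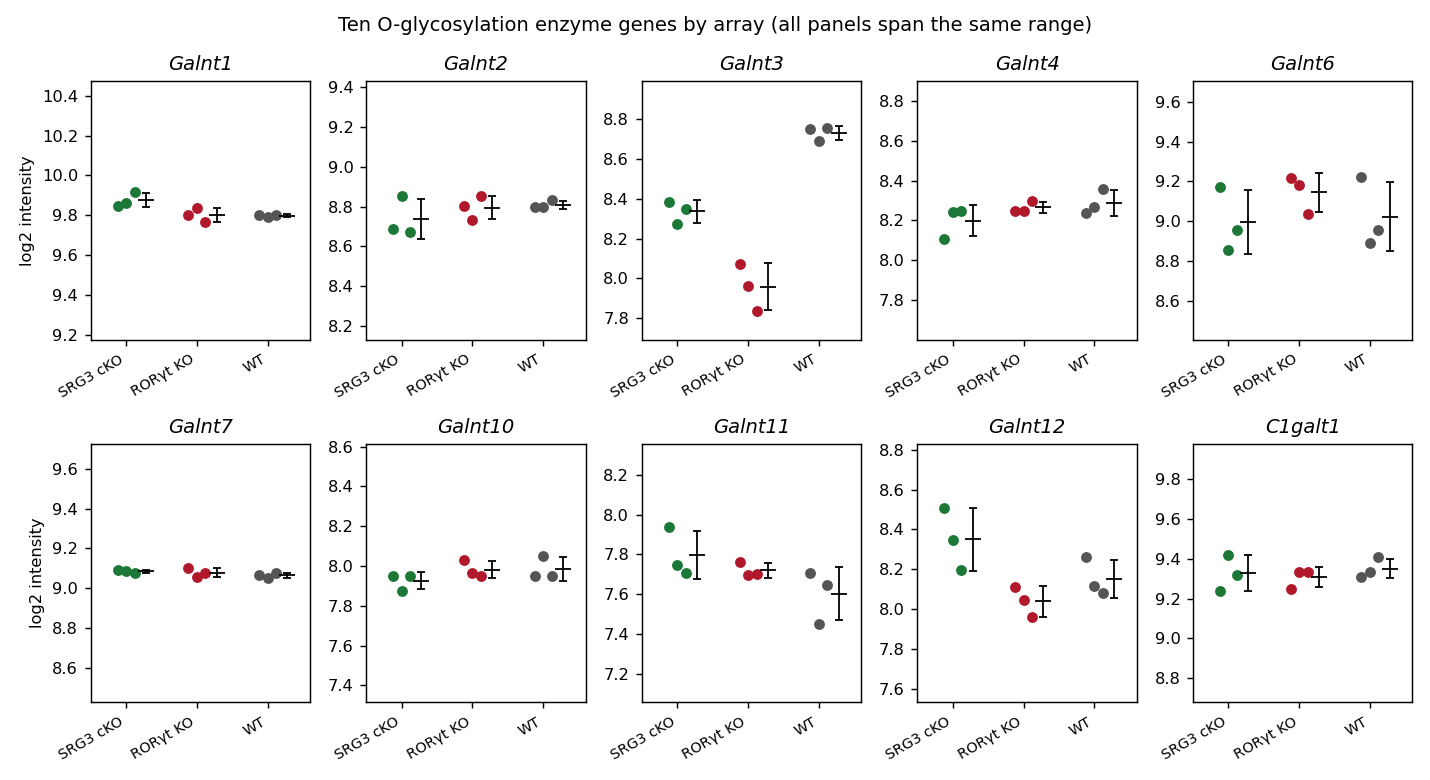
Log2 intensity (y axis) of each of the 10 genes in every array (points) by genotype (x axis), with the mean and SD of 3 arrays beside them; each panel spans the same range of log2 units. Only in the panel of Galnt3 are all 3 groups apart from one another, at 8.28 to 8.39 in SRG3 cKO, 7.84 to 8.07 in RORγt KO and 8.69 to 8.75 in WT arrays.

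The other 9 members did not pass the test in any comparison. Their log2 changes lay between -0.09 and 0.20 in SRG3 cKO against WT cells, with 5 of 9 below 0 and confidence bounds from -0.26 to 0.38. In RORγt KO against WT cells they lay between -0.11 and 0.12, again with 5 below 0 (bounds -0.30 to 0.35). Between SRG3 cKO and RORγt KO cells they lay between -0.15 and 0.31, with 4 below 0 (bounds -0.38 to 0.49). At an unadjusted p under 0.05 there were 2, 0 and 1 of these 9 in the 3 comparisons, where 11.2%, 12.7% and 11.1% of all genes lay under it. The bound farthest from 0 against WT, 0.38, was that of Galnt12 in SRG3 cKO cells.

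Galnt6 encodes the enzyme most like that of Galnt3. It lay at 9.17, 8.86 and 8.96 in SRG3 cKO arrays, at 9.22, 9.18 and 9.04 in RORγt KO arrays and at 9.22, 8.89 and 8.96 in WT arrays. The groups overlapped, and the array numbered 1 was the highest of each group. The log2 change was -0.03 in SRG3 cKO cells (interval -0.26 to 0.20, adjusted p = 0.941) and 0.12 in RORγt KO cells (interval -0.10 to 0.35, adjusted p = 0.677). Of the members Galnt6 had the widest intervals, and its interval in RORγt KO cells did not reach the fall of Galnt3 there.

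Galnt1 and Galnt2 encode broadly expressed enzymes that begin O-glycans on many proteins. Galnt1 had 9.85, 9.86 and 9.91 in SRG3 cKO arrays, 9.80, 9.84 and 9.77 in RORγt KO arrays and 9.80, 9.79 and 9.80 in WT arrays. The SRG3 cKO arrays lay above all others without overlap, by 0.08 over WT (SE 0.04, adjusted p = 0.477) and 0.07 over RORγt KO arrays (adjusted p = 0.515), which did not pass. A second probe set of Galnt1 did not show this order: its values were 8.78, 8.92 and 8.94 in SRG3 cKO, 8.83, 8.80 and 8.86 in RORγt KO and 8.80, 8.96 and 8.86 in WT arrays, with a log2 change of 0.01 in SRG3 cKO cells (adjusted p = 0.971). Galnt2 had 8.69, 8.85 and 8.67 in SRG3 cKO arrays, 8.80, 8.73 and 8.85 in RORγt KO arrays and 8.80, 8.80 and 8.83 in WT arrays. Its groups overlapped, with log2 changes of -0.07 in SRG3 cKO and -0.01 in RORγt KO cells (adjusted p = 0.683 and 0.945).

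Galnt4 and Galnt12 encode another closely related pair. Galnt12 had 8.51, 8.35 and 8.19 in SRG3 cKO arrays, 8.11, 8.04 and 7.96 in RORγt KO arrays and 8.26, 8.11 and 8.08 in WT arrays. The SRG3 cKO arrays were all above the RORγt KO arrays, and WT arrays overlapped both. The log2 difference was 0.20 in SRG3 cKO against WT cells (interval 0.02 to 0.38, adjusted p = 0.410, or 0.0981 with the replicate number as a block), with the SRG3 cKO array higher in 3 of 3 same-numbered pairs, and -0.11 in RORγt KO against WT cells (interval -0.30 to 0.07, adjusted p = 0.619). Between SRG3 cKO and RORγt KO cells it was 0.31 (interval 0.13 to 0.49, adjusted p = 0.148), which passed only with the replicate number as a block in all 9 arrays (adjusted p = 0.0156) and not with the block in the 6 arrays compared (0.0861). Galnt12 was thus the member nearest to a call after Galnt3. The order of its group means differed from that of Galnt3, with WT in the middle, but none of its differences passed in the reported fit.

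Galnt4 had 8.11, 8.24 and 8.25 in SRG3 cKO arrays, 8.25, 8.25 and 8.30 in RORγt KO arrays and 8.24, 8.27 and 8.36 in WT arrays. Its SRG3 cKO arrays lay just below the RORγt KO arrays, by 0.07 in the mean (adjusted p = 0.692), and overlapped the WT arrays (log2 change -0.09, adjusted p = 0.561). Galnt4 lies within Poc1b, a centriole protein gene, in the RefSeq annotation, and whether its probe set also reads Poc1b transcripts was not tested. Poc1b itself did not pass (log2 change 0.01 in SRG3 cKO and 0.02 in RORγt KO cells). Of the next genes on that chromosome, Atp2b1, for a plasma membrane calcium pump, fell in SRG3 cKO cells (-0.28, adjusted p = 0.0266), and Dusp6, for a phosphatase of ERK kinases, rose in RORγt KO cells (0.59, adjusted p = 0.0287).

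Galnt7 and Galnt10 encode enzymes that prefer peptides already carrying the sugar. Galnt7 had 9.09, 9.09 and 9.08 in SRG3 cKO arrays, 9.10, 9.06 and 9.08 in RORγt KO arrays and 9.07, 9.05 and 9.08 in WT arrays. Its groups overlapped, and the intervals were narrow: -0.06 to 0.09 in SRG3 cKO and -0.06 to 0.09 in RORγt KO against WT cells. Galnt10 had 7.95, 7.88 and 7.95 in SRG3 cKO arrays, 8.03, 7.96 and 7.95 in RORγt KO arrays and 7.95, 8.05 and 7.95 in WT arrays. Its log2 changes were -0.06 in SRG3 cKO (interval -0.16 to 0.04, adjusted p = 0.676) and -0.00 in RORγt KO cells (interval -0.10 to 0.10, adjusted p = 0.988). In 5 of the 9 arrays Galnt10 held one identical value, and 6 of the 10 members and 56% of all named genes had a value shared exactly by at least 2 arrays. Galnt3, Galnt4, Galnt6 and Galnt12 had 9 different values.

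Galnt11, whose human enzyme is known for glycosylating NOTCH1, had 7.94, 7.75 and 7.71 in SRG3 cKO arrays, 7.76, 7.70 and 7.70 in RORγt KO arrays and 7.71, 7.45 and 7.65 in WT arrays. Its SRG3 cKO arrays overlapped the WT arrays by a single shared value, with a log2 change of 0.20 (interval 0.03 to 0.37, adjusted p = 0.385). In RORγt KO cells the change was 0.12 (interval -0.05 to 0.29, adjusted p = 0.573). C1galt1, for the enzyme that acts next in the chain, had 9.24, 9.42 and 9.32 in SRG3 cKO arrays, 9.25, 9.34 and 9.34 in RORγt KO arrays and 9.31, 9.34 and 9.41 in WT arrays. Its groups overlapped, with log2 changes of -0.02 (interval -0.14 to 0.10, adjusted p = 0.900) and -0.04 (interval -0.16 to 0.08, adjusted p = 0.791) against WT cells.

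**Figure D2:**
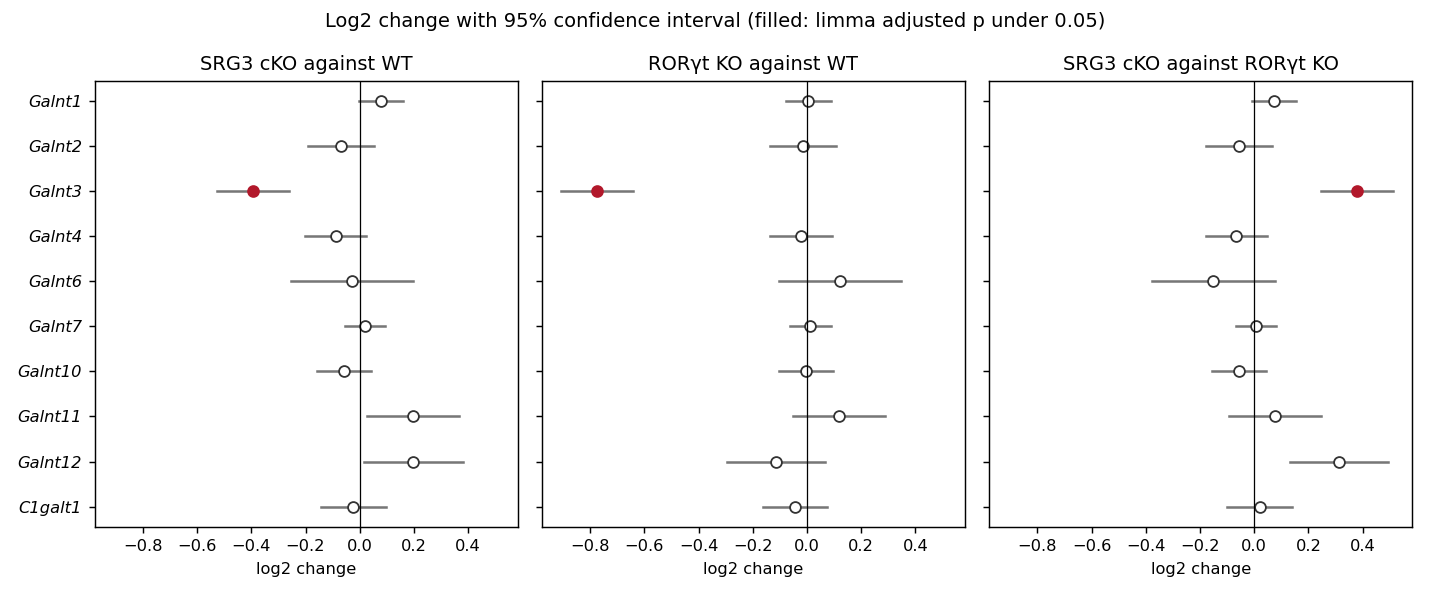
Log2 change (x axis) of the 10 genes (rows) in the 3 comparisons, points with 95% confidence intervals, filled where the limma adjusted p was under 0.05. Galnt3 is the filled point in each panel, at -0.39, -0.77 and 0.38; the other intervals reach from -0.38 to 0.49.

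Counted by overlap alone, 2 of the 10 members had groups apart in SRG3 cKO against WT cells (Galnt1 above and Galnt3 below), against 13.6% of all genes. In RORγt KO against WT cells it was 1 of 10 (Galnt3 below), against 14.3%. Between SRG3 cKO and RORγt KO cells it was 4 of 10 (Galnt1, Galnt3 and Galnt12 above and Galnt4 below), against 14.6%. The median log2 change of the members was -0.03, -0.01 and 0.01 in these comparisons, and that of all genes was -0.01, -0.00 and -0.00.

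The remaining genes of the GalNAc-transferase family (Galnt5, Galnt9, Galnt13 to Galnt18, Galntl5 and Galntl6) were all measured, 10 of 10, and none changed. Only Galnt9 had a mean above the median of all values, 7.13, while all 10 members did. The members were listed with earlier results of these arrays known, so this contrast may follow from the choice and is a description. Intensities of different probe sets do not rank RNA amounts between genes. Galnt14 had the change of largest size among them, with 6.80, 6.92 and 6.77 in SRG3 cKO arrays, 6.89, 6.87 and 6.90 in RORγt KO arrays and 6.98, 7.03 and 7.07 in WT arrays. Both knockouts lay below WT without overlap, by -0.20 (adjusted p = 0.144) and -0.14 (adjusted p = 0.257) on the log2 scale, and neither passed. At an unadjusted p under 0.05 there were 2, 1 and 0 of these 10 genes, against 11.2%, 12.7% and 11.1% of all genes.

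The genes for building on the first sugar were 24, for enzymes and, in C1galt1c1, for a chaperone. Of these 24, none changed in SRG3 cKO against WT cells and 1 fell in RORγt KO cells. Between SRG3 cKO and RORγt KO cells 1 was higher and 1 lower. The shares of all genes were 0.523% changed in SRG3 cKO against WT cells, 0.343% lower in RORγt KO against WT cells, and 0.595% higher and 0.681% lower between the knockouts. At an unadjusted p under 0.05 there were 3, 8 and 8 of the 24, against 11.2%, 12.7% and 11.1% of all genes, and these counts are a description. The gene that fell was Chst2, for a sulphotransferase that sulphates N-acetylglucosamine on selectin ligands. Chst2 had 8.84, 8.84 and 8.87 in SRG3 cKO arrays, 8.39, 8.39 and 8.57 in RORγt KO arrays and 8.85, 8.92 and 9.17 in WT arrays. The RORγt KO arrays were below all others. Its log2 change was -0.53 in RORγt KO against WT cells (SE 0.08, adjusted p = 0.0202), -0.13 in SRG3 cKO against WT cells (adjusted p = 0.604) and 0.40 in SRG3 cKO against RORγt KO cells (adjusted p = 0.0488). The fall in RORγt KO cells passed in 17 of 21 alternatives and not in the fit of the 6 arrays (adjusted p = 0.115) or without RORγt KO 1, RORγt KO 2 or WT 2. The direct difference passed in 10 of 21.

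B4galt5, for a β-1,4-galactosyltransferase, had 9.21, 9.15 and 9.27 in SRG3 cKO arrays, 9.50, 9.48 and 9.53 in RORγt KO arrays and 9.38, 9.43 and 9.37 in WT arrays. Each group was apart from the others, with WT between the knockouts. Only the difference between SRG3 cKO and RORγt KO cells passed (-0.30, SE 0.04, adjusted p = 0.00869, and 19 of 21 alternatives), while the changes against WT were -0.18 (adjusted p = 0.117) and 0.11 (adjusted p = 0.303). C1galt1c1, which encodes Cosmc, the chaperone C1galt1 needs, was at 0.01 in SRG3 cKO and 0.04 in RORγt KO cells. Like Galnt10, C1galt1c1 held one identical value in 5 of the 9 arrays. The galactosyltransferase gene B4galt1 was at 0.35 (adjusted p = 0.289) and 0.43 (adjusted p = 0.148), and St3gal1, for the sialyltransferase that caps core 1, at -0.01 and -0.05. None of these passed.

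Supply of the sugar donors did not pass the test in any comparison. Of 12 measured genes for nucleotide sugar synthesis and Golgi transport none changed (unadjusted 2, 2 and 3). Gfpt1, the entry enzyme of hexosamine synthesis, was at -0.08 in SRG3 cKO and -0.06 in RORγt KO cells, and Cmas, which activates sialic acid, at 0.07 and 0.18 (adjusted p = 0.597 and 0.102). Of 13 genes for other kinds of protein O-glycosylation none changed (unadjusted 2, 0 and 3). Of all genes 0.523%, 1.04% and 1.28% changed, and 11.2%, 12.7% and 11.1% lay under 0.05 unadjusted. Ogt and Oga, which add and remove O-linked N-acetylglucosamine in the nucleus and cytosol, were at 0.06 and 0.07 in SRG3 cKO cells and at 0.03 and -0.02 in RORγt KO cells.

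Of 9 N-glycan branching genes, taken as a comparison from the other main class of Golgi glycans, none changed against WT. At an unadjusted p under 0.05 there were 3 and 4, against 11.2% and 12.7% of all genes, as a description. Between SRG3 cKO and RORγt KO cells 2 were higher, against 0.595% of all genes. Fut8, the core fucosyltransferase gene, had 9.03, 9.10 and 8.89 in SRG3 cKO arrays and 8.55, 8.52 and 8.73 in RORγt KO arrays (0.41, adjusted p = 0.0220), with 8.82, 8.86 and 8.75 in WT arrays. Man2a2, for a Golgi mannosidase, had 9.08, 9.03 and 8.95 in SRG3 cKO arrays and 8.70, 8.81 and 8.79 in RORγt KO arrays (0.26, adjusted p = 0.0330), with 8.87, 8.92 and 8.90 in WT arrays. In both, the WT arrays lay between the knockouts. These calls passed in 14 of 21 (Fut8) and 11 of 21 alternatives (Man2a2).

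Among genes for surface glycoproteins, not all of them of the mucin type, and for lectins that bind sugars, 15 were measured. Of these, 1 fell in SRG3 cKO cells, 1 rose in RORγt KO cells, and 1 was higher and 1 lower between SRG3 cKO and RORγt KO cells. Of all genes 0.694% rose in RORγt KO cells and 0.243% fell in SRG3 cKO cells. Between the knockouts 0.595% were higher and 0.681% lower. At an unadjusted p under 0.05 there were 5, 6 and 6 of the 15, against 11.2%, 12.7% and 11.1% of all genes, again as a description. Lgals3, for the β-galactoside-binding lectin galectin-3, had 8.30, 8.31 and 8.30 in SRG3 cKO arrays, 9.02, 9.03 and 8.87 in RORγt KO arrays and 8.61, 8.46 and 8.61 in WT arrays. All 3 groups were apart. Lgals3 rose in RORγt KO against WT cells (0.41, adjusted p = 0.0144, 16 of 21 alternatives) and was lower in SRG3 cKO than in RORγt KO cells (-0.67, adjusted p = 0.000679, 21 of 21), while SRG3 cKO against WT was -0.26 (adjusted p = 0.112).

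Cd44, the hyaluronan receptor gene whose product was used to sort the naive cells before culture, fell in SRG3 cKO cells (-0.36, adjusted p = 0.0488), with 8.48, 8.65 and 8.53 in SRG3 cKO arrays against 8.96, 8.97 and 8.81 in WT arrays. The Cd44 call passed in 7 of 21 alternatives and in none of the 9 fits that left out 1 array. Emb, for the adhesion glycoprotein embigin, was higher in SRG3 cKO than in RORγt KO cells (0.35, adjusted p = 0.0133, 16 of 21 alternatives). The main mucin-type glycoproteins did not pass: Spn, for CD43, was at -0.02 in SRG3 cKO and 0.00 in RORγt KO cells, Ptprc, for CD45, at -0.03 and 0.09, and Selplg, for PSGL-1, at 0.07 and 0.36 (adjusted p = 0.810 and 0.132).

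**Figure D3:**
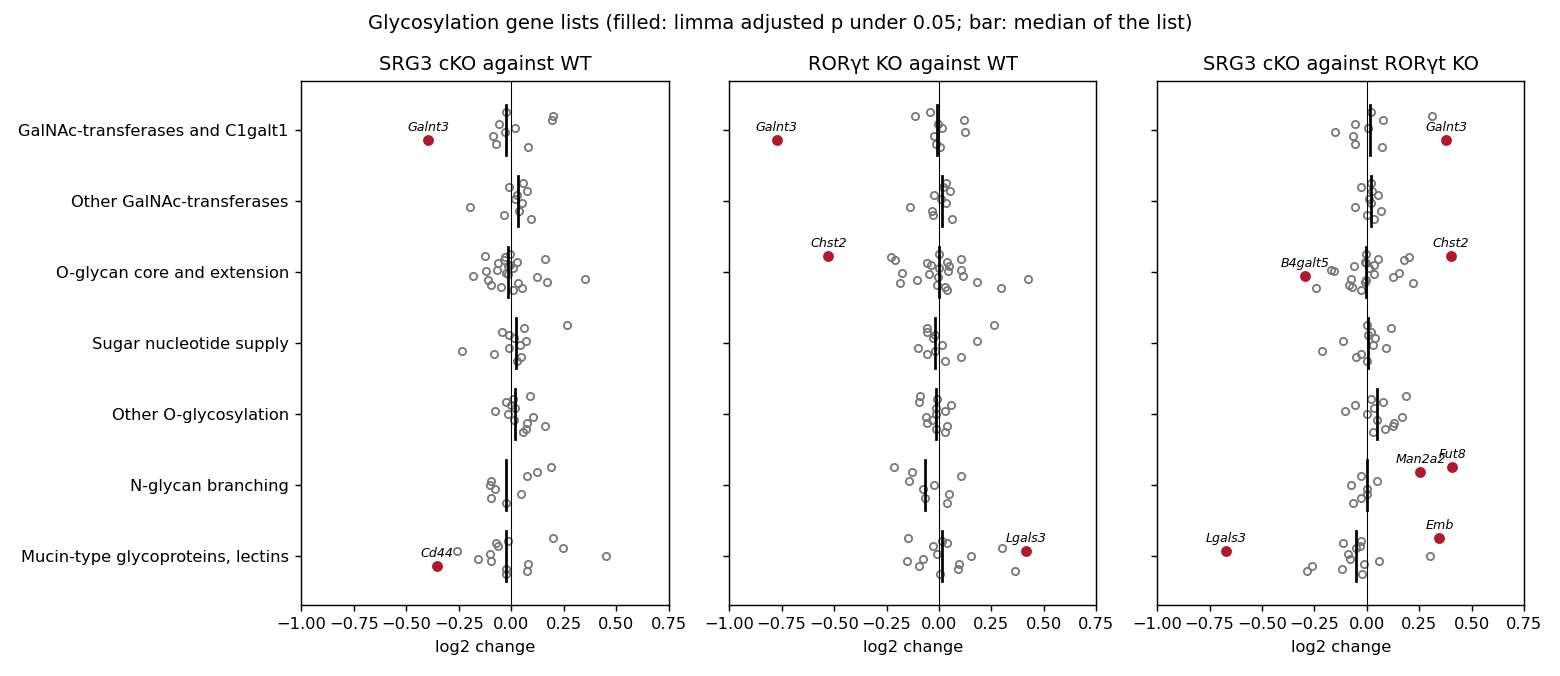
Log2 change (x axis) of each measured gene (points) of the glycosylation lists (rows) in the 3 comparisons, filled and named where the limma adjusted p was under 0.05, with a bar at the median of each list. Galnt3 is the filled point farthest to the left in RORγt KO against WT cells (-0.77), followed by Chst2 (-0.53), and the list medians lie between -0.07 and 0.05.

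The genes with the profile most like that of Galnt3 over the 9 arrays were Cpd, Plek and Igfbp7. They were picked for this likeness on the same arrays, so their order of groups and their calls follow in part from the choice and are given as a description. Likeness was the root mean square difference of log2 values after each gene's own mean was taken off, over 11080 genes brighter than the median gene. It was 0.11 for Cpd, 0.17 for Plek and 0.17 for Igfbp7, against a median of 0.32 over all these genes. Cpd, for carboxypeptidase D, which trims proteins in the trans-Golgi network, had 10.93, 10.92 and 10.92 in SRG3 cKO arrays, 10.72, 10.48 and 10.70 in RORγt KO arrays and 11.25, 11.17 and 11.30 in WT arrays. The 3 groups of Cpd were apart in the order seen for Galnt3. Cpd fell in RORγt KO cells (-0.61, adjusted p = 0.00334, 21 of 21 alternatives), while -0.31 in SRG3 cKO cells (adjusted p = 0.0899) and 0.30 between SRG3 cKO and RORγt KO cells (adjusted p = 0.0701) did not pass.

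Plek, for the platelet and leukocyte protein pleckstrin, had 10.18, 10.48 and 10.30 in SRG3 cKO arrays, 9.98, 10.02 and 10.03 in RORγt KO arrays and 10.48, 10.54 and 10.52 in WT arrays. It fell in RORγt KO cells (-0.50, adjusted p = 0.0129, 17 of 21 alternatives) and was at -0.20 in SRG3 cKO cells (adjusted p = 0.317), where array 2 lay just under the WT arrays. Igfbp7, for a secreted binding protein of insulin-like growth factors, had 7.39, 7.56 and 7.61 in SRG3 cKO arrays, 7.42, 7.36 and 7.52 in RORγt KO arrays and 8.09, 8.12 and 8.18 in WT arrays. It fell in both, by 0.61 on the log2 scale in SRG3 cKO cells (adjusted p = 0.00578) and by 0.70 in RORγt KO cells (adjusted p = 0.00135). Unlike those of Galnt3, its SRG3 cKO and RORγt KO arrays overlapped (0.09, adjusted p = 0.678). Of the 3 promoter windows of these genes, that of Plek held AGGTCA once, with its first base 153 bases before the start, and the windows of Cpd and Igfbp7 held none of the 3 motifs.

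**Figure D4:**
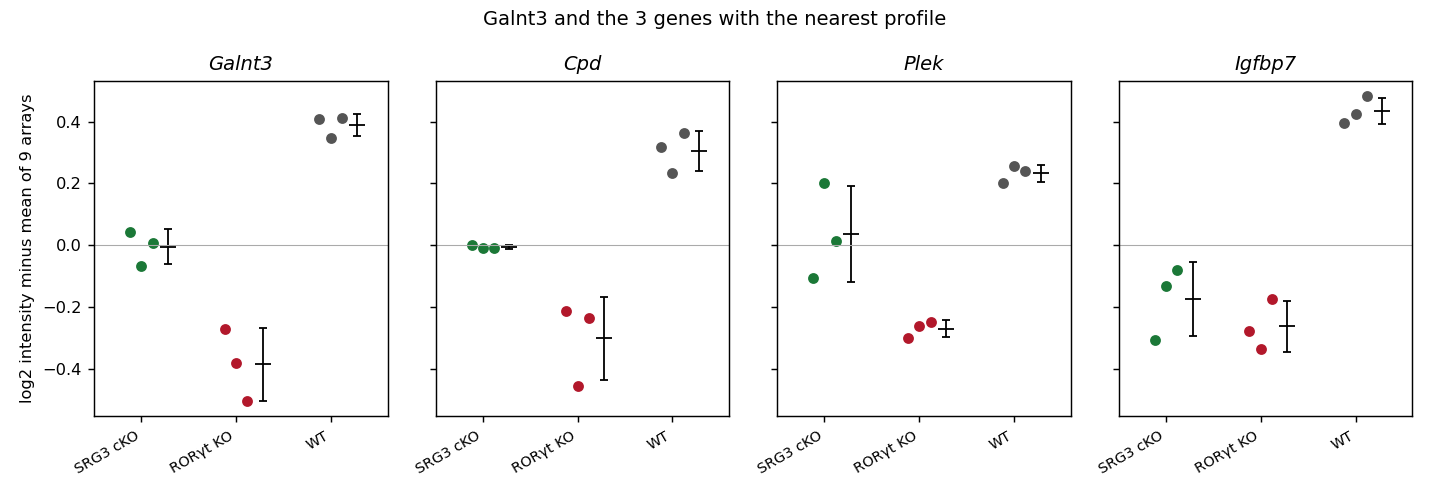
Log2 intensity minus the mean of the 9 arrays (y axis) of Galnt3 and the 3 genes with the nearest profile, by genotype (x axis); points are arrays, and bars the mean and SD of 3. WT is highest in all 4 panels, and RORγt KO arrays are apart from SRG3 cKO arrays in the panels of Galnt3, Cpd and Plek but not Igfbp7.

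**Figure D5:**
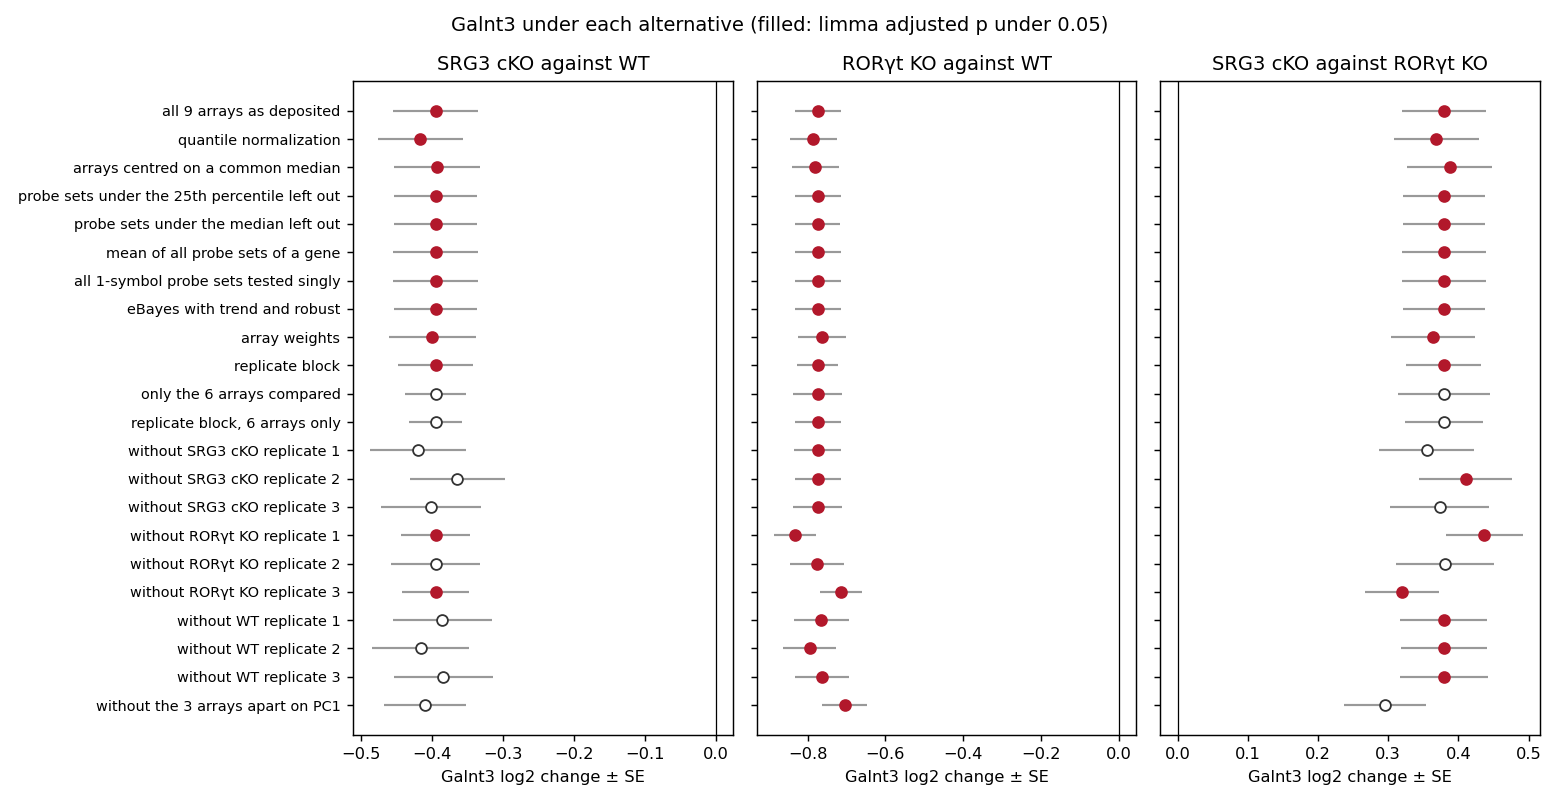
Log2 change of Galnt3 ± SE (x axis) as reported and under each of 21 alternatives (rows) in the 3 comparisons, filled where the limma adjusted p was under 0.05. The changes stay at -0.42 to -0.36, -0.83 to -0.70 and 0.29 to 0.44, while the number of alternatives past the threshold is 11, 21 and 15.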

How the data were processed

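RNA of Th17 cultures was hybridized to 9 GeneChip arrays (3 SRG3 cKO, 3 RORγt KO and 3 WT), per the labels. The values are log2 probe set intensities as deposited by the authors. Their background correction, summarization, normalization and genome build are not given in the sources used here. The number of arrays limits the precision. Of 41345 probe sets, those with 1 gene symbol (23521) were used and those with several (1814) or no symbol (16010) were not, with symbols updated by gene ID (23328 matched) from RefSeq (GRCm38.p6), which also gave gene order. The brightest probe set stood for each of 22180 genes, and 0 sample columns were left unused.

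All 9 arrays entered 1 fit with limma 3.58.1 in R 4.3.3, with a mean per genotype, Benjamini-Hochberg adjustment per comparison and a threshold of 0.05. Members and gene lists were chosen with earlier results of these data known. Named were all members, Smarcc1, of each other list the genes called and otherwise up to 4 of the brightest, and the 3 genes most like each called member. Neighbouring genes, Galnt14 and the genes Spn, C1galt1c1 and Th17 markers were named after their values were seen or for their role.

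The alternatives were quantile normalization, median centring, 2 filters on dim probe sets, probe set choice, variance model, array weights, the 6 arrays compared, the replicate block and leaving out each array. The block within 6 arrays and the fit without the 3 arrays that stood apart were added after seeing the data. Pairing was checked by correlating deviations of same-numbered arrays from their group means: 0.287, 0.186 and 0.116 for SRG3 cKO and WT, which were taken as paired. Those of RORγt KO and WT (0.215, -0.00527 and 0.186) and of SRG3 cKO and RORγt KO (0.223, -0.00544 and 0.137) were not. All these correlations are low, and arrays of different numbers were not correlated for comparison. The labels state no pairing, and the reported fit uses none.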

Additional observations from a re-analysis of the deposited data

How the results depend on the processing

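The count of members called was 1 in each comparison. For RORγt KO against WT it was 1 under all 21 alternatives. For SRG3 cKO against WT it was 0 in the fit of only the 6 arrays compared, with the replicate block in those 6 arrays, and without the 3 arrays set apart on the first principal component, and it ranged from 0 to 1 over the fits without 1 array. For SRG3 cKO against RORγt KO it was 2 with the replicate block in all 9 arrays (Galnt3 and Galnt12), 0 in the same 3 fits as above, and 0 to 1 over the fits without 1 array. Fits of fewer arrays have fewer degrees of freedom, and beyond that the cause was not tested. With the replicate block in all 9 arrays no call of a member changed in SRG3 cKO against WT. Whether the replicate numbers pair those arrays is not stated in the labels. The number of all genes called was 116, 230 and 283 in the 3 comparisons. It ranged from 1 to 196, 43 to 464 and 39 to 368 over alternatives other than leaving out 1 array. With the replicate block in all 9 arrays it was 195, 374 and 368. Leaving out 1 array gave 18 to 87, 45 to 322 and 138 to 261. Of 630 values of single members under alternatives, 596 kept direction and side of the threshold, 16 lost the call, 1 gained it and 17 turned their sign, all of them uncalled and near 0. These were Galnt1 in RORγt KO against WT (-0.0017 after centring, -0.017 with the mean of its probe sets), and, between SRG3 cKO and RORγt KO, Galnt7 (-0.018 after quantile normalization) and Galnt11 (-0.0021 without the 3 arrays). Without 1 array the ranges that crossed 0 were, in SRG3 cKO against WT, -0.071 to 0.020 for C1galt1 and -0.12 to 0.070 for Galnt6. In RORγt KO against WT they were -0.013 to 0.023 for Galnt1, -0.042 to 0.017 for Galnt2, -0.028 to 0.030 for Galnt10 and -0.048 to 0.014 for Galnt4. Between SRG3 cKO and RORγt KO they were -0.027 to 0.064 for C1galt1 and -0.0046 to 0.018 for Galnt7. The cause of these turns was not tested.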
